A study of Mus musculus with 70 samples.

Results

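The comparison was between common innate lymphoid progenitors (CILP) of Id2 knockout mice and CILP of wild-type mice, sorted from bone marrow. All libraries that the labels give as CILP of either genotype in the first of 2 experimental batches were taken, which gave 2 Id2 knockout and 3 wild-type libraries, 5 of the 70 samples of the series. The series profiled sorted lymphoid progenitor populations from wild-type, Id2-/- and TCF7-/- mice, at 100 cells per population. RNA was counted by CEL-seq, which copies polyadenylated RNA and reads a tag near its 3′ end. The knockout group was Id2-/- CILP and its reference was CILP labelled WT, with no treatment given for either. Common lymphoid progenitors (CLP) of the same batch, 2 Id2-/- and 3 WT libraries, served to ask whether an effect differed between populations. Age, sex, strain, the deleted part of Id2 and the antibodies of the gate are not given in the sources used here. Nothing in the labels says that libraries of a group came from separate mice, so p-values measure the spread between libraries, which may be technical.

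ID2 is a small helix-loop-helix protein that lacks a DNA-binding domain. It binds E proteins, the transcription factors that drive early B and T lineage genes from E-box sequences, and keeps them off DNA. Innate lymphoid cells (ILC) depend on ID2, and its induction marks the passage from CLP to progenitors restricted to ILC, alongside GATA3, TCF-1, TOX and PLZF.

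Id2 knockout libraries were deeper, with 160289 and 224239 counts, against 73527, 139930 and 42266 counts in wild-type libraries. They also held 0.398% and 0.969% mitochondrial counts, against 4.32%, 2.96% and 4.48% in wild-type libraries. Wild-type replicate 1 stood apart from the other wild-type libraries. It held 3969.9 CPM (counts scaled to a fixed total per library) of Mcpt8, a basophil protease, and 801.9 CPM of the haemoglobin gene Hba-a2, and both genes were at 0 in wild-type replicates 2 and 3. For some of the results, values without replicate 1 are also given below, and other values include it.

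Id2 itself (chr12:25093799-25096092, mm10) had 111.0 and 26.3 CPM in knockout CILP, from 19 and 6 counts, against 1590.6, 1024.7 and 2579.2 CPM in wild-type CILP, from 121, 155 and 125 counts. Both knockout libraries lay below all wild-type libraries of the batch. The 4 wild-type CILP libraries used from the second batch come from another table and were outside the main fit. They entered an alternative fit of both batches. These libraries held 74.9 to 719.1 CPM (median 456.1), and the lowest of them lay below knockout replicate 1. The fitted log2 fold change was -4.66 (SE 1.19), and the adjusted p of 0.091 from edgeR's quasi-likelihood test missed the threshold of 0.05. An exact 2-sided permutation test gave p = 0.1, the smallest value that 10 splits of 2 against 3 libraries allow. DESeq2 called the gene (adjusted p = 0.0192), as did limma-voom (0.000542) and a fit of the 5 CILP libraries alone (0.00133). Since a tag near the 3′ end can lie outside the deleted part, remaining Id2 counts say nothing of the protein.

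Across the genome, 4015 genes were tested and 50 changed (1.25%), of which 23 rose (0.573%) and 27 fell (0.672%) in knockout CILP. Over all genes tested, the log2 fold change had a median of 0.08. The receptor genes Ccr2, Il7r, Il18r1, Icos and Il17rb and the regulator Lmo4 were among those that fell. Those that rose included the cell division gene Top2a, the stem and erythroid regulators Myb and Tal1, the carbonic anhydrase Car2, the water channel Aqp1 and the lipid carrier Apoe. Knockout and wild-type libraries did not overlap for any of the 50 genes, beside 16.9% of all genes tested with knockout above wild type and 12.4% with knockout below. In bulk samples, fewer cells of a type and less RNA per cell cannot be told apart. Without knockout replicate 1 there were 11 calls, and without knockout replicate 2 there were 6. Leaving out wild-type replicates 1, 2 or 3 gave 33, 24 and 40 calls. Of the 50 genes, 43 were also called by DESeq2 and 9 in a fit of 47 libraries of both batches. These 9 were Ccr2, Il7r, Il18r1, Lmo4, Cd53, Lgals9, Il1rl1, Ripor1 and Hhex, and the calls of all other genes were lost in that fit. Losses given for single genes below do not cover every alternative. Genes entered the test through a filter on these same 5 libraries, so a gene at 0 in one genotype passed through the other, and counts and medians over the tested members of a list are descriptions of those members, not of the whole list.

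**Figure D1:**
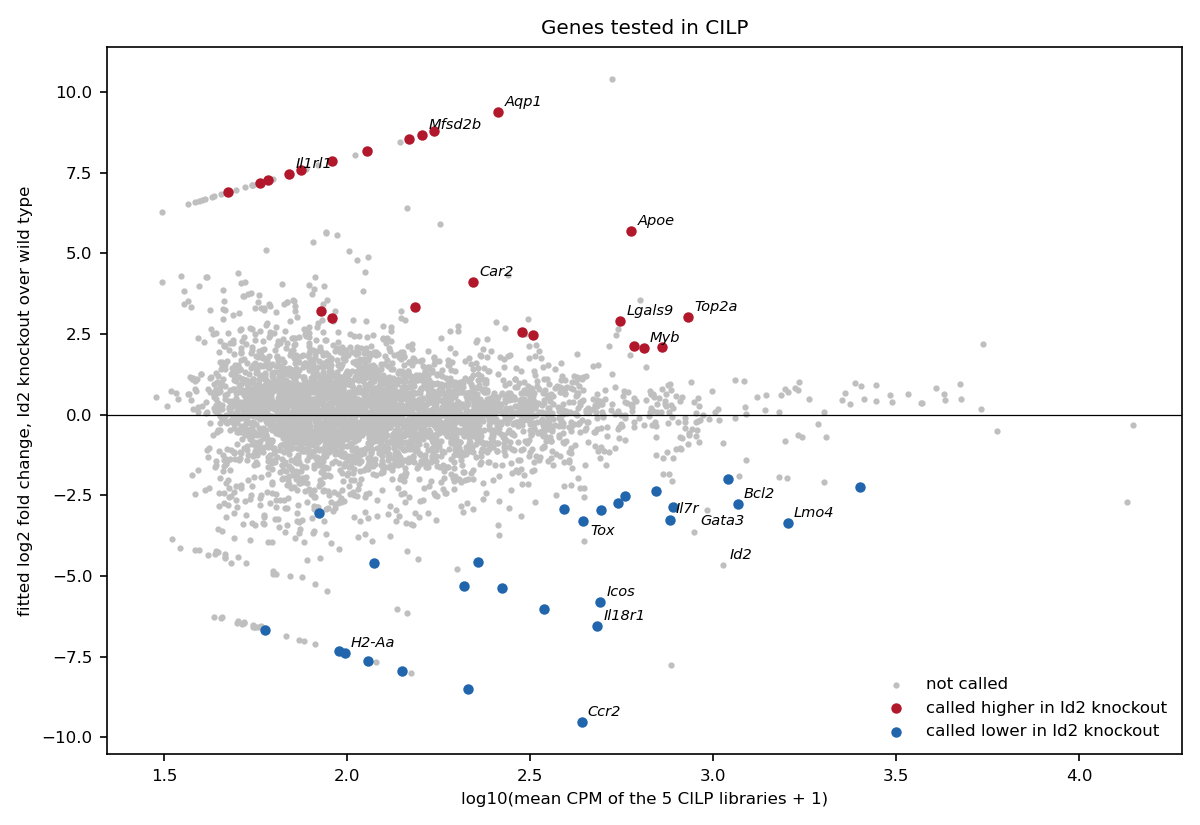
Fitted log2 fold change of Id2 knockout over wild-type CILP (y) against log10 of the mean CPM of the 5 libraries plus 1 (x), for 4015 genes. The 23 red points rose and the 27 blue points fell. Points on the outer slanting lines are genes with 0 counts in one group, whose fitted fold depends on the prior count.

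Ccr2, the receptor for the monocyte chemoattractant CCL2 (chr9:124101918-124109140), had no count in either knockout library, against 328.6, 489.2 and 1361.8 CPM in wild-type CILP. It was thus not detected at this depth in knockout CILP and present in all wild-type libraries. Set against 3 counts over the knockout group, the level was at least 96.7-fold lower (adjusted p = 0.000113). It was the only gene called in all 14 alternative analyses. The 4 wild-type CILP libraries used from the second batch held 462.3 to 1070 CPM.

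Il18r1, a chain of the receptor for interleukin-18, had 5.8 and 8.8 CPM in knockout CILP, against 788.7, 509.1 and 1093.6 CPM in wild-type CILP. It fell by 6.55 on the log2 scale (SE 1.1, adjusted p = 0.000445), a call lost only without knockout replicate 2 (adjusted p = 0.0517). Il7r, the receptor chain that carries the interleukin-7 signal on which lymphoid progenitors rely, had 169.4 and 78.9 CPM in knockout CILP, against 1051.6, 1156.9 and 1341.2 CPM in wild-type CILP. It fell by 3.25 (SE 0.53, adjusted p = 0.000254), and its call was also lost without knockout replicate 2. Neither receptor showed an overlap between genotypes.

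Il17rb, the receptor for interleukin-25, was at 0 in both knockout libraries, against 118.3, 145.4 and 206.3 CPM in wild-type CILP, at least 20.9-fold lower (adjusted p = 0.0266). Il1rl1, the gene of ST2 and so of the receptor for interleukin-33, went the other way, with 192.7 and 149.1 CPM in knockout CILP against 0 in all wild-type libraries. It was at least 15.7-fold higher (adjusted p = 0.00506). Both calls were lost without knockout replicate 1 and without wild-type replicate 2, that of Il17rb also without knockout replicate 2, and that of Il1rl1 also with DESeq2. Il1rl1 and Il18r1 are neighbours on chromosome 1, with 133 bases between their annotated ends, and they changed in opposite directions. Of 9 cytokine receptor genes tested, 3 fell and 1 rose, with a median log2 fold change of 0.4. Without wild-type replicate 1, this median was 1.37.

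**Figure D2:**
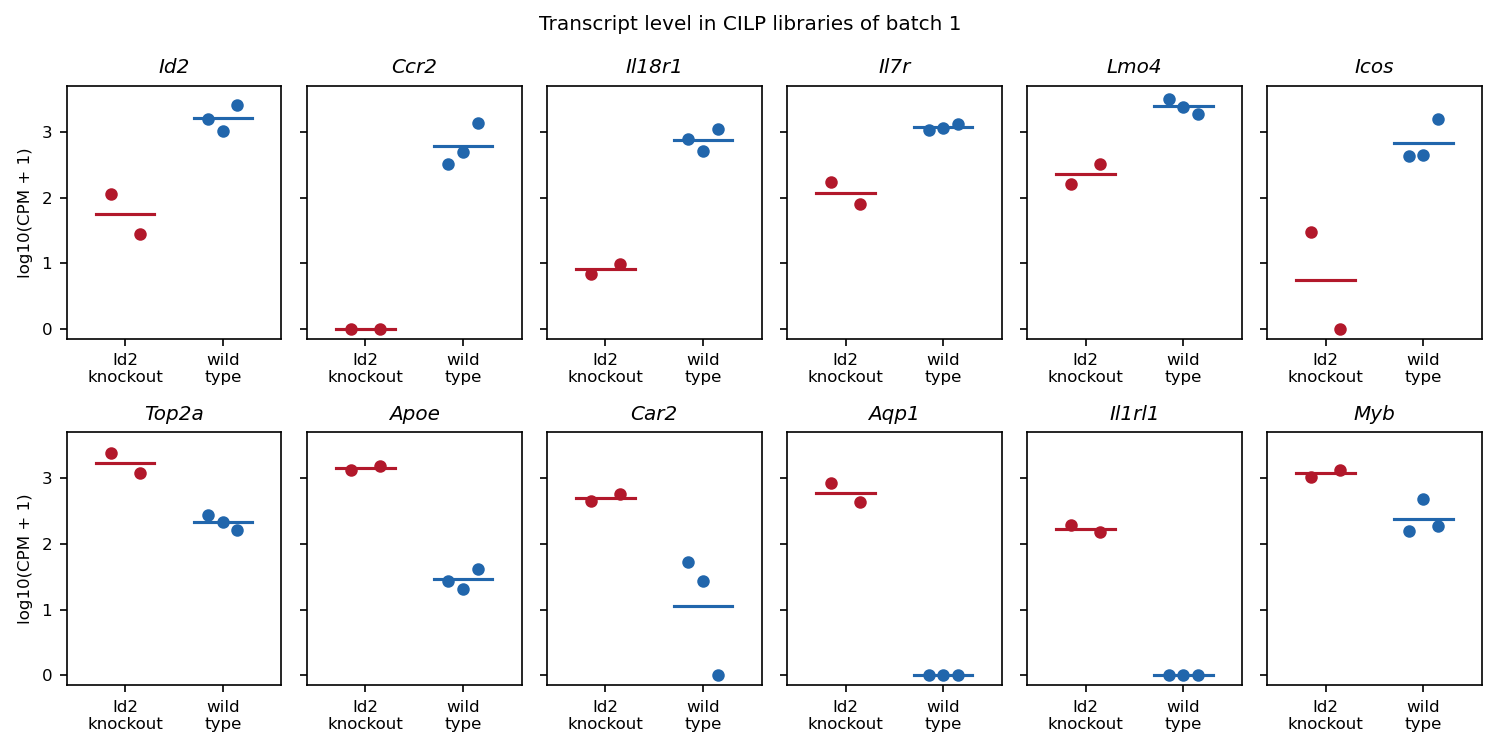
Level of 12 genes as log10(CPM + 1) in each CILP library, Id2 knockout in red on the left and wild type in blue on the right, with a bar at the mean of these log values. Libraries of the genotypes do not overlap in any panel, and Ccr2 is at 0 in knockout while Aqp1 and Il1rl1 are at 0 in wild type. All genes shown except Id2 were called, and no called gene overlapped between genotypes.

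Of 12 transcription factors and cofactors of the ILC programme tested, Lmo4 passed the test, and it did not pass without knockout replicate 1. Among the 12, 11 had a fitted fold change below 0, beside 1871 of all 4015 genes tested. Both knockout libraries lay below all wild-type libraries for 10 of the 12, beside 12.4% of all genes tested. The median log2 fold change was -2.92, and the summed level was 1798.9 and 2078.8 CPM in knockout CILP, against 8636.5, 9202.6 and 8047.2 CPM in wild-type CILP. Lmo4, a LIM-domain cofactor, had 157.7 and 328.9 CPM in knockout CILP, against 3194.3, 2413.0 and 1898.3 CPM in wild-type CILP. It fell by 3.35 (SE 0.6, adjusted p = 0.0013), with the call lost without knockout replicate 1.

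Tox, a nuclear factor needed for ILC development, had 52.6 and 39.5 CPM in knockout CILP, against 460.1, 879.3 and 784.1 CPM in wild-type CILP. Its log2 fold change was -3.92 (SE 1.08, adjusted p = 0.0537). Gata3, the factor required for ILC that express the interleukin-7 receptor, had 93.5 and 131.6 CPM in knockout CILP, against 1222.5, 1818.0 and 1155.5 CPM in wild-type CILP (log2 fold change -3.62, SE 1.01, adjusted p = 0.119). The groups did not overlap for either gene, although neither passed the test, and both overlap other annotated genes, so their counts are uncertain, as are those of Zbtb16 and Tcf7. Zbtb16, which encodes PLZF, had 52.6 and 21.9 CPM in knockout CILP, against 446.9, 495.8 and 268.2 CPM in wild-type CILP (adjusted p = 0.295). Tcf7, the gene of TCF-1, had 23.4 and 65.8 CPM in knockout CILP, against 184.0, 363.6 and 227.0 CPM in wild-type CILP (adjusted p = 0.587). Bcl11b, a factor of group 2 ILC and T cells, had 239.5 and 223.7 CPM in knockout CILP, against 617.8, 442.9 and 515.8 CPM in wild-type CILP (adjusted p = 0.585). Runx1 and Runx3, partners of many lymphoid factors, overlapped between genotypes.

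Genes that define CILP were not all low in knockout CILP. Kit, the stem cell factor receptor, had 677.5 and 539.4 CPM in knockout CILP, against 92.0, 218.2 and 144.4 CPM in wild-type CILP (adjusted p = 0.427). The integrin genes Itga4 and Itgb7, whose products pair to form the gut-homing receptor, overlapped between genotypes. Counts of Kit, Itga4, Itgb7, Id2, Tcf7, Gata3, Zbtb16, Tox and Il7r, the 9 genes taken here to define CILP, were above 0 in every library of both genotypes.

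Genes of mature ILC groups were also measured. Of 17 group 2 ILC genes, 4 had enough counts to be tested, of which Icos, Arg1 and Il17rb fell and Il1rl1 rose. Each was at or near 0 in one genotype and entered the test through the other, so no summary over the 4 is given. Icos, a costimulatory receptor, had 29.2 and 0 CPM in knockout CILP, against 433.8, 442.9 and 1547.5 CPM in wild-type CILP. It fell by 5.8 (SE 1.05, adjusted p = 0.00133), and the call was lost without knockout replicate 2 and in the fit of both batches. Arg1, the arginase of group 2 ILC and macrophages, was at 0 in both knockout libraries and between 41.3 and 449.6 CPM in wild-type CILP (adjusted p = 0.0146). The call of Arg1 was lost with DESeq2, without either knockout replicate and without wild-type replicate 2, and the wild-type CILP libraries of the second batch held 0 to 167.7 CPM. Among 9 group 1 ILC and natural killer genes tested, Il18r1 was the one that fell, and the median was -1.94. Ccl5, a chemokine of cytotoxic lymphocytes, had 327.1 and 793.8 CPM in knockout CILP, against 3273.2, 1937.0 and 1238.0 CPM in wild-type CILP (adjusted p = 0.721). Ltb, the lymphotoxin gene and the one group 3 ILC gene tested, had an adjusted p of 0.639.

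**Figure D3:**
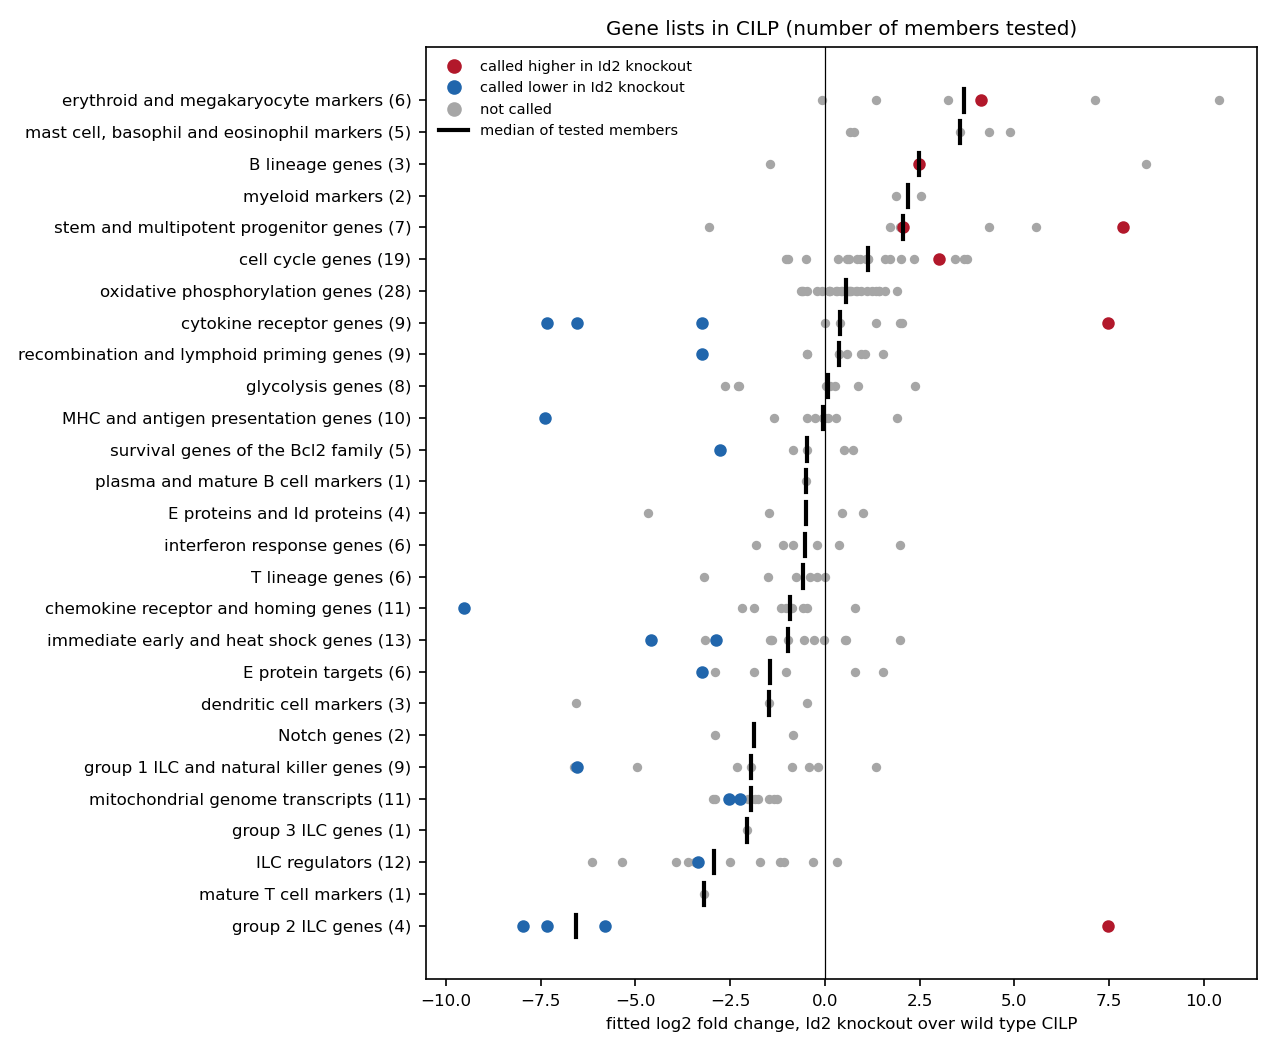
Fitted log2 fold change of Id2 knockout over wild-type CILP (x) for the tested members of each gene list (rows, with the number tested), with a black bar at the list's median. Red and blue members rose and fell, and the ILC regulators have 11 of 12 members left of 0.

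Other receptors and signalling genes of lymphocytes fell as well. Pdcd1, the gene of the inhibitory receptor PD-1, had 11.7 and 4.4 CPM in knockout CILP, against 644.1, 561.9 and 495.2 CPM in wild-type CILP (log2 fold change -6.03, SE 1.52, adjusted p = 0.0355). Its call was lost when any 1 of the 5 libraries was left out. Tnfrsf25, the death receptor DR3, was at 0 in both knockout libraries, against 131.5, 99.2 and 61.9 CPM in wild-type CILP (adjusted p = 0.0355). When 1 library was left out, the call of Tnfrsf25 held only without wild-type replicate 3. Bcl2, which protects lymphocytes from apoptosis, had 327.1 and 193.0 CPM in knockout CILP, against 2063.8, 985.1 and 2269.7 CPM in wild-type CILP, and fell by 2.76 (SE 0.62, adjusted p = 0.0112). Bcl2 was the 1 of 5 tested survival genes of its family to pass. The call of Bcl2 was lost without either knockout replicate, as were those of Cd53, a tetraspanin, Lcp1, an actin-bundling protein of leukocytes, and Gsn, the actin-severing gelsolin. Cd53 fell by 2.92, Lcp1 fell by 1.98 and Gsn fell by 4.57. S100a4, a calcium-binding protein of motile cells, had 0 and 17.5 CPM in knockout CILP, against 236.6, 628.1 and 433.3 CPM in wild-type CILP, and fell by 5.37. H2-Aa, a chain of MHC class II, was at 0 in both knockout libraries, against 184.0, 158.7 and 144.4 CPM in wild-type CILP, at least 21.6-fold lower (adjusted p = 0.00658). It was the 1 of 10 MHC and antigen presentation genes to pass. The calls of S100a4 and H2-Aa were also lost without either knockout replicate. Of 13 immediate early and heat shock genes tested, Fos and Fosb, partners of JUN in the AP-1 factor, fell by 2.87 and 4.59. The call of Fos was lost without knockout replicate 1, and that of Fosb without either knockout replicate, without wild-type replicate 2 and in the fit of the 5 CILP libraries alone.

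Myb, Tal1 and Car2, genes of stem and erythroid progenitors, rose in knockout CILP. None of 5 mast cell, basophil and eosinophil markers tested passed edgeR's test in the main fit (2 had an unadjusted p below 0.05, DESeq2 called none, and limma-voom called 4). Among other edgeR fits, 2 were called with no filter on low counts. A filter by group over 22 libraries, the 5 CILP libraries alone and leaving out wild-type replicate 1 each gave 1 call, and the remaining edgeR fits none. Of 7 stem and multipotent progenitor genes tested, Myb and Tal1 rose, and the median was 2.07. Without wild-type replicate 1, the median was 3 and none of the 7 was called. Of the 7, 5 had both knockout libraries above all wild-type libraries, beside 16.9% of all genes tested. Myb, a factor of haematopoietic progenitors, had 1063.0 and 1337.6 CPM in knockout CILP, against 157.7, 482.6 and 185.7 CPM in wild-type CILP. It rose by 2.07 (SE 0.53, adjusted p = 0.0362), and the call held only without wild-type replicate 2 when 1 library was left out. Tal1, a factor of stem and erythroid cells that itself pairs with E proteins, had 146.0 and 302.6 CPM in knockout CILP, against 0 in all wild-type libraries, at least 20.6-fold higher (adjusted p = 0.0362). Its call was lost when any 1 library was left out. Lmo2, which works in a complex with TAL1, had 257.0 and 193.0 CPM in knockout CILP, against 13.1, 0 and 0 CPM in wild-type CILP (adjusted p = 0.0808).

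Of 15 erythroid and megakaryocyte markers, 6 were tested, and Car2 rose. Car2 had 443.9 and 574.5 CPM in knockout CILP, against 52.6, 26.4 and 0 CPM in wild-type CILP, and rose by 4.11 (SE 0.87, adjusted p = 0.00674). The call was lost without knockout replicate 2, without wild-type replicate 2 and with both batches (log2 fold change 2.82, adjusted p = 0.671). Wild-type CILP libraries of the second batch held 25 to 403.6 CPM of Car2. Car1, the erythroid carbonic anhydrase, had 1483.5 and 1162.2 CPM in knockout CILP and was at 0 in all wild-type libraries of its batch (adjusted p = 0.0581), whereas those of the second batch held 0 to 455.6 CPM. Klf1, the master factor of red cell genes, had 151.9 and 118.4 CPM in knockout CILP and was at 0 in wild-type CILP of its batch and at 0 to 34.8 CPM in that of the second (adjusted p = 0.156). The whole list of 15 genes summed to 2511.5 and 2846.3 CPM in knockout CILP, against 1183.1, 185.1 and 144.4 CPM in wild-type CILP, where replicate 1 owed 801.9 CPM to Hba-a2. Hba-a1, Hbb-bs and Slc4a1, which mark maturing red cells, were at 0 in all 5 libraries. The part of other cells in these levels was not tested.

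Aqp1 had 858.6 and 429.8 CPM in knockout CILP against 0 in wild-type CILP, at least 59.2-fold higher (adjusted p = 0.0113). Its call was lost without either knockout replicate, without wild-type replicates 1 or 2, with DESeq2 and in the fit of both batches. Mfsd2b, a lipid transporter of red cells and platelets, had 443.9 and 350.9 CPM in knockout CILP against 0 in wild-type CILP, at least 36.5-fold higher (adjusted p = 0.0355), a call lost when any 1 library was left out and with DESeq2. Apoe had 1355.0 and 1539.4 CPM in knockout CILP, against 26.3, 19.8 and 41.3 CPM in wild-type CILP, and rose by 5.7 (SE 1.11, adjusted p = 0.00342). For Apoe, leaving out knockout replicate 2 removed the call, as did the fit of both batches. Lgals9, the gene of galectin-9, had 1168.1 and 1157.8 CPM in knockout CILP, against 197.2, 171.9 and 82.5 CPM in wild-type CILP, and rose by 2.9 (SE 0.57, adjusted p = 0.00342), again with a call lost without knockout replicate 2.

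Of 12 mast cell, basophil and eosinophil markers, 5 were tested, with adjusted p between 0.149 and 0.979. The list summed to 6372.1 and 3793.6 CPM in knockout CILP, against 4982.1, 211.6 and 41.3 CPM in wild-type CILP, so wild-type replicate 1 lay within the knockout range. Mcpt8 had 3066.3 and 1499.9 CPM in knockout CILP, and Prss34, another basophil protease, had 2166.9 and 635.9 CPM in knockout CILP against 354.9, 0 and 0 CPM in wild-type CILP. Without wild-type replicate 1, Prss34 was called higher (adjusted p = 0.0234). Gata2, a factor of stem cells, mast cells and basophils, had 584.1 and 697.3 CPM in knockout CILP, against 78.9, 13.2 and 0 CPM in wild-type CILP (adjusted p = 0.149). Fcer1a, a chain of the IgE receptor, had 105.1 and 434.2 CPM in knockout CILP, against 26.3, 0 and 0 CPM in wild-type CILP (adjusted p = 0.231). Cpa3, another marker of the list, had 373.8 and 434.2 CPM in knockout CILP, against 512.7, 198.3 and 41.3 CPM in wild-type CILP. Its groups overlapped, with the highest value in wild-type replicate 1. The mast cell protease gene Cma1 had 0 and 52.6 CPM in knockout CILP, against 13.1, 0 and 0 CPM in wild-type CILP. Of the mature mast cell and eosinophil markers, Mcpt4, Tpsb2, Prg2 and Epx were at 0 in all 5 libraries.

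**Figure D4:**
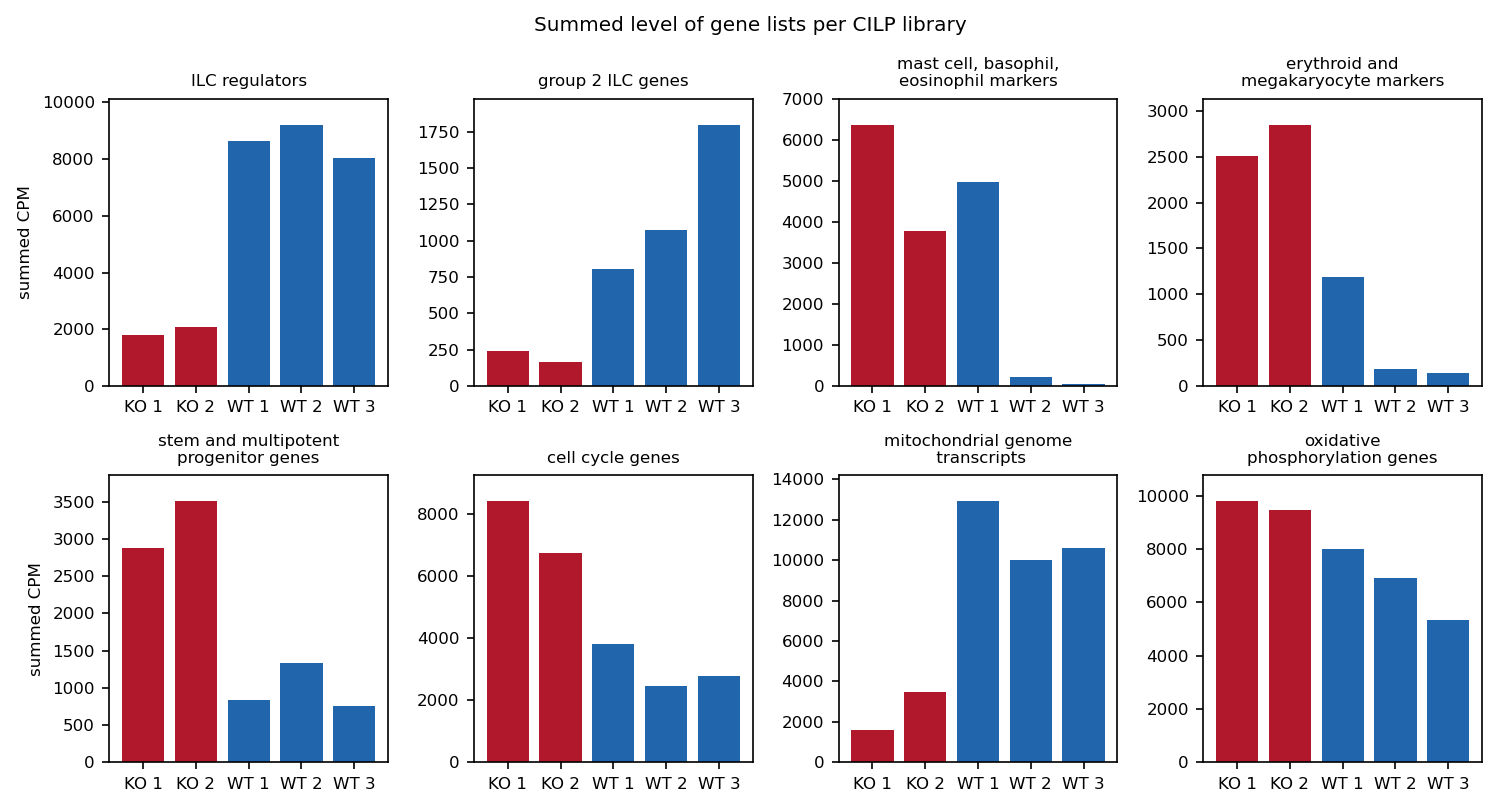
Summed CPM of 8 gene lists (y) in each CILP library, Id2 knockout in red on the left and wild type in blue on the right. The ILC regulators sum to 1798.9 and 2078.8 CPM in knockout and 8047.2 to 9202.6 CPM in wild type, and wild-type replicate 1 has 4982.1 CPM of mast cell, basophil and eosinophil markers.

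Cell division genes were higher in knockout CILP in sum, with 8387.2 and 6732.0 CPM against 3812.1, 2452.7 and 2764.9 CPM in wild-type CILP. Top2a, the topoisomerase of dividing cells, had 2423.9 and 1192.9 CPM in knockout CILP, against 276.1, 218.2 and 165.1 CPM in wild-type CILP. It rose by 3.02 (SE 0.48, adjusted p = 0.000246) and was called whichever library was left out, although it overlaps another annotated gene. The call was lost in the edgeR fit of both batches (adjusted p = 0.145). Wild-type CILP libraries of the second batch held 64.2 to 621.3 CPM. Top2a was the 1 of 19 cell cycle genes tested to pass, and the median was 1.15. Of the 19, 8 had both knockout libraries above all wild-type libraries, beside 16.9% of all genes tested. Further mitotic genes outside the list rose, the kinesin Cenpe and the spindle midzone protein Prc1, both at 0 in all wild-type libraries of the batch. With 1 library left out, the call of Prc1 was lost each time and that of Cenpe in 4 of 5 fits, and wild-type CILP libraries of the second batch held 0 to 371 CPM of Cenpe, with the highest above both knockout libraries (116.8 and 114.0 CPM). Mki67 had 438.0 and 184.2 CPM in knockout CILP, against 420.6, 0 and 0 CPM in wild-type CILP, so the groups overlapped. Without wild-type replicate 1 the list's median was 1.97.

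Of 11 mitochondrial genome transcripts tested, ND4 and ND2 fell, beside 0.672% of all genes tested. All 11 had a fitted log2 fold change below 0, beside 1871 of all 4015 genes tested. For 10 of the 11, both knockout libraries lay below all wild-type libraries, beside 12.4% of all genes tested. The median was -1.96, and -1.55 without wild-type replicate 1. ND4, a subunit of respiratory complex I, had 642.5 and 912.2 CPM in knockout CILP, against 3233.7, 3986.5 and 3858.5 CPM in wild-type CILP, and fell by 2.25 (SE 0.45, adjusted p = 0.00436). The call of ND4 was lost without either knockout replicate, and ND2, another such subunit, fell by 2.52, a call lost without knockout replicate 1 and without wild-type replicates 1 or 3. In contrast, the 28 nuclear oxidative phosphorylation genes tested had a median of 0.56 and smallest adjusted p of 0.408. The mitochondrial share is also a sign of RNA and cell quality, and its part in the other differences was not tested.

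Of 11 chemokine receptor and homing genes tested, Ccr2 fell, beside 0.672% of all genes tested. Of the 11, 10 had a fitted fold change below 0, beside 1871 of all 4015 genes tested, and the median was -0.92. Both knockout libraries lay below all wild-type libraries for 4 of the 11, beside 12.4% of all genes tested, and the groups overlapped for 7. In the B lineage list, Bcl11a was the 1 of 3 tested to pass (median 2.47), and of 9 recombination and lymphoid priming genes Il7r was the one that fell (median 0.38). Medians were -0.57 for 6 T lineage genes, -1.86 for 2 Notch genes, -0.52 for 6 interferon response genes and 0.09 for 8 glycolysis genes. Among markers of other cells, myeloid markers summed to 467.3 and 543.8 CPM in knockout CILP, against 315.5, 238.0 and 247.6 CPM in wild-type CILP, so the groups did not overlap. Mpo, the myeloperoxidase of granulocyte precursors, had 192.7 and 179.8 CPM in knockout CILP, against 144.6, 6.6 and 0 CPM in wild-type CILP. The early granulocyte protease genes Ctsg, with 169.4 and 140.3 CPM in knockout CILP against 78.9, 0 and 0 CPM in wild-type CILP, and Prtn3, with 46.7 and 35.1 CPM in knockout CILP against 0 in wild-type CILP, were also above. Cebpa, a factor of myeloid progenitors, had 29.2 and 136.0 CPM in knockout CILP against 0 in wild-type CILP. Lyz2, Csf1r, Cebpe, Ltf, Cd14 and Lcn2, which mark later myeloid cells, were at 0 in all 5 libraries. Other members went the other way, from few counts. S100a9, Ngp and Camp had 103.2, 61.9 and 20.6 CPM in wild-type replicate 3 and were at 0 in every other library. S100a8 had 6.6 and 41.3 CPM in wild-type replicates 2 and 3 and 0 in both knockout libraries. Ly6c2 had 0 and 21.9 CPM in knockout CILP, against 26.3, 185.1 and 0 CPM in wild-type CILP. Dendritic cell markers summed to 519.8 and 236.8 CPM in knockout CILP, against 801.9, 885.9 and 577.7 CPM in wild-type CILP. Of these sums, Tcf4, also an E protein gene, held 216.1 and 162.3 CPM against 525.8, 634.7 and 412.7 CPM. Batf3 was at 0 in knockout CILP, against 39.4, 112.4 and 123.8 CPM. Irf8 went the other way, with 140.2 and 35.1 CPM in knockout CILP against 13.1, 26.4 and 0 CPM in wild-type CILP. Itgax was seen only in knockout replicate 1 (40.9 CPM). Mature T cell markers summed to 0 and 21.9 CPM in knockout CILP, against 210.3, 119.0 and 206.3 CPM in wild-type CILP, with Cd4 and Cd8a at 0. Plasma and mature B cell markers summed to 146.0 and 149.1 CPM in knockout CILP, against 157.7, 52.9 and 185.7 CPM in wild-type CILP. The part of these cells in the results was not tested.

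E proteins and their targets were examined for the family that ID2 binds. Tcf3, the gene of E2A, had 75.9 and 456.1 CPM in knockout CILP, against 236.6, 178.5 and 165.1 CPM in wild-type CILP, with overlapping groups. Tcf12, the gene of HEB, overlapped as well. Tcf4, the gene of E2-2, had 216.1 and 162.3 CPM in knockout CILP, against 525.8, 634.7 and 412.7 CPM in wild-type CILP (log2 fold change -1.48, SE 0.47, adjusted p = 0.123). Of 6 E protein targets tested, Il7r fell, and the median was -1.46. Dntt, the terminal transferase of early lymphocytes, had 221.9 and 399.1 CPM in knockout CILP, against 262.9, 52.9 and 0 CPM in wild-type CILP, and was called higher without wild-type replicate 1 (adjusted p = 0.00475). Hes1, a Notch target, had 35 and 74.6 CPM in knockout CILP, against 368.1, 363.6 and 536.5 CPM in wild-type CILP (adjusted p = 0.129). Bcl11a, a factor of B cell and dendritic progenitors, rose by 2.47 (SE 0.65, adjusted p = 0.0372), with 432.2 and 780.7 CPM in knockout CILP against 39.4, 19.8 and 330.1 CPM in wild-type CILP. When 1 library was left out, its call held only without wild-type replicate 3.

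Since E proteins bind E-boxes, the RefSeq promoter windows (GRCm38.p6, 250 bases before to 50 after the start) of called genes were searched for E-box letters. Searched were CAGCTG, which is its own reverse complement, and CAGGTG with its reverse complement, which reads CACCTG. This covers both strands, and no match of one can be a match of another. At least 1 match was found in 4 of 22 windows of genes that rose (18.2%) and in 7 of 20 windows of genes that fell (35%), beside 26.2% of 3238 windows of genes tested and 32.9% of 25748 windows in all. For AGATAA or its reverse complement TTATCT, the letters GATA factors bind, the letters were in 4 of 22 and 2 of 20 windows, beside 5.78% of those tested and 11.4% in all. Windows are shown for a pair of genes that rose and a pair that fell, with E-box letters in capitals. Ccr2, the gene with the steadiest call, had no such letters in its window, which says nothing of binding elsewhere.
Aqp1 promoter, chr6:55336049-55336348, plus strand: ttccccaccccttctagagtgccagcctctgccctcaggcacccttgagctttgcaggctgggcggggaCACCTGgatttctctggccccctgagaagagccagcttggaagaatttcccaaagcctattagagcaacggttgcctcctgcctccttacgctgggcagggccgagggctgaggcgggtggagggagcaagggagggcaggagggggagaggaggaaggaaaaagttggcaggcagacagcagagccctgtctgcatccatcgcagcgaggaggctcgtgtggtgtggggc
Mfsd2b promoter, chr12:4874310-4874609, minus strand: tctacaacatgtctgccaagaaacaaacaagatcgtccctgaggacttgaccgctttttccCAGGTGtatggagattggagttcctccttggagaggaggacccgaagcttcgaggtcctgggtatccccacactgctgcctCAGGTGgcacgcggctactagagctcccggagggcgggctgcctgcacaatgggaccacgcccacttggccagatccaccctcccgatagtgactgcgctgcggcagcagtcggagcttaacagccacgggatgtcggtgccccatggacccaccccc
Ccr2 promoter, chr9:124101933-124102232, plus strand: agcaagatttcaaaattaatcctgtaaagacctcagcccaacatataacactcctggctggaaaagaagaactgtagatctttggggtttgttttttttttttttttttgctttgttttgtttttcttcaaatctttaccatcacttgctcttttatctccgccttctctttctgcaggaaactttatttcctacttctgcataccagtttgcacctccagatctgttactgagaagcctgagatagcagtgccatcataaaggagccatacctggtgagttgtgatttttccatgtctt
Il17rb promoter, chr14:30008847-30009146, minus strand: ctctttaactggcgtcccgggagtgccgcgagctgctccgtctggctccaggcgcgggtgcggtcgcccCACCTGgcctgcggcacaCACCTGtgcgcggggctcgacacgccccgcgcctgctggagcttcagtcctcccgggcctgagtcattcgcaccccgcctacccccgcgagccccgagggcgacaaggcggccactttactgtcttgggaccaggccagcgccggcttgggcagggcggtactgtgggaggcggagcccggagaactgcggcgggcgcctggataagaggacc

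The Id2 effect was set against that in CLP, where Id2 had 0 CPM in both knockout libraries against 95.6, 0 and 0 CPM in wild type. The genes tested had been filtered on the CILP libraries, so genes seen in CLP but too low in CILP could not be called. Among the genes tested, 1 was called in CLP (0.0249%), the immediate early gene Jun. It had 745.2 and 736.4 CPM in knockout CLP, against 4111.7, 2072.1 and 3970.5 CPM in wild-type CLP, and fell by 2.19 (SE 0.39, adjusted p = 0.00657), while in CILP its adjusted p was 0.925. The effect differed between CILP and CLP for 12 genes (0.299%) by the interaction term of the same edgeR fit. For Ccr2, CLP had 32.1 and 195.3 CPM in knockout against 9.6, 0 and 0 CPM in wild type (adjusted p of the difference 2.34e-06). For Il7r, CLP had 1193.9 and 1179.9 CPM in knockout against 650.2, 939.4 and 822.8 CPM in wild type, and the effect in CILP was lower by 3.81 (SE 0.67, adjusted p = 0.000987). Top2a had 2492.0 and 2119.7 CPM in knockout CLP and 2782.6, 2658.4 and 2298.7 CPM in wild-type CLP, so Id2 knockout CILP lay nearer to CLP than wild-type CILP did for this gene. The difference between the effects on Top2a was 3.18 (SE 0.67, adjusted p = 0.0144). Apoe in CLP had 0 and 12.2 CPM in knockout and 0, 80.0 and 52.2 CPM in wild type, far below its level in knockout CILP. For Il18r1, the difference was not called (adjusted p = 0.0671).

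**Figure D5:**
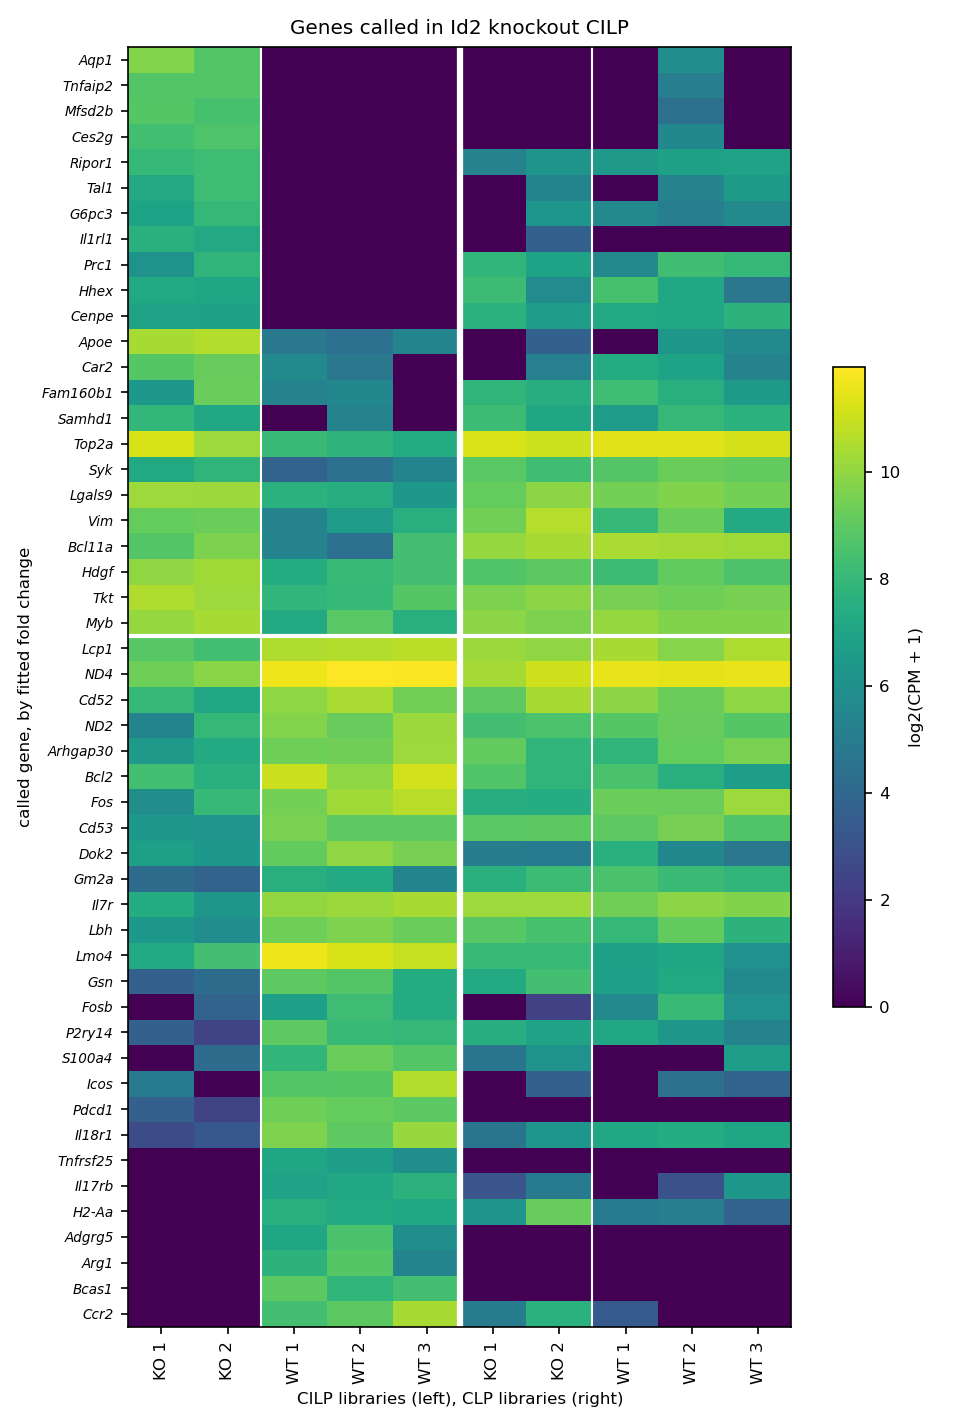
Level as log2(CPM + 1) (colour) of the 50 genes called in CILP (rows, by fitted fold change) in CILP libraries on the left and CLP libraries on the right, with Id2 knockout (KO) left of wild type (WT) in each. Genes that rose stand above the white line, and Aqp1, Tnfaip2, Mfsd2b and Ces2g are at 0 in wild-type CILP and in knockout CLP.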

How the data were processed

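Deposited were whole-number counts of reads for 27179 Entrez genes, with 1 table for each batch. The submitters' processing notes name CASAVA 1.8.2, featureCounts, limma, edgeR (versions 3.8.2 and 3.22.0) and the mm10 build. The aligner and the use of strand are not given in the sources used here. No molecular identifiers are stated, so bounds cover counting error only. RefSeq symbols and coordinates (GRCm38.p6, the assembly of mm10) matched 25275 identifiers (92.99%). The 1279 genes on X or Y and the 1904 unmatched identifiers were left out.

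edgeR 4.0.16 in R 4.3.3 gave the main results. Genes passed filterByExpr on the 5 CILP libraries (minimum count 10, minimum total 15) and were scaled by TMM. All 22 libraries of batch 1, in 10 groups, entered 1 robust quasi-likelihood model, with 12 residual degrees of freedom and a biological coefficient of variation of 63.5%. A gene was called where its Benjamini-Hochberg adjusted p, over all genes tested, was below 0.05. CPM are counts per scaled library total. With 0 counts in a group, a fold was bounded against 3 counts over that group. Alternatives used DESeq2 1.42.0, limma-voom (limma 3.58.1), other filters, other sets of libraries and each library left out. The scripts were tested on simulated data. Replicate pairs differed by 3.66 to 4.88 times sampling noise, so each library counted once. The 8 control wells of the batch held 51 to 9439 counts and entered no fit.

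The genes and lists were chosen with earlier results of these data known. Named were Id2, Ccr2, Il18r1, the tested ILC regulators and E and Id proteins, up to 4 members per other list with the smallest adjusted p, and up to 15 called genes per direction with the largest fitted change and a mean of at least 20 CPM. Other genes named in the text were chosen after their values were seen. No gene set test was run. Of the 50 called genes, 15 overlap another annotated gene, so their counts are uncertain.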

Additional observations from a re-analysis of the deposited data

Results flagged for a closer look

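The Id2 effect differed between CILP and CLP for 12 genes by the interaction term in edgeR's quasi-likelihood test. Values are the log2 effect in CILP minus that in CLP, and those of genes with 0 counts in a group depend on the prior count. The difference was -14.4 for Ccr2, -11 for H2-Aa, -3.81 for Il7r, -4.67 for Lmo4 and -5.78 for Gsn, all of which fell in CILP. It was 6.41 for Car2, 3.18 for Top2a, 8.15 for Apoe, 13.98 for Aqp1 and 9.03 for Ripor1, all of which rose in CILP. H2-Aa had 72.1 and 581.8 CPM in knockout CLP, against 28.7, 33.3 and 13.1 CPM in wild-type CLP. Lmo4 had 264.4 and 272.6 CPM in knockout CLP, against 114.7, 133.3 and 65.3 CPM in wild-type CLP. In CLP, Gsn had 160.3 and 329.6 CPM in knockout and 105.2, 153.2 and 52.2 CPM in wild type. Car2 had 0 and 36.6 CPM in knockout CLP, against 162.6, 119.9 and 39.2 CPM in wild-type CLP.

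A further pair of genes differed between the populations without a call in CILP. 1700113H08Rik, with a difference of -13.44, had 0 CPM in both knockout CILP libraries, against 184.0, 165.3 and 123.8 CPM in wild-type CILP, and 136.2 and 0 CPM in knockout CLP, against 0 in wild-type CLP. Rnu3b1, a U3 RNA gene with a difference of 11.08, had 81.8 and 166.7 CPM in knockout CILP, against 13.1, 0 and 20.6 CPM in wild-type CILP, and 0 in knockout CLP, against 401.6, 6.7 and 78.4 CPM in wild-type CLP. In both of these genes 1 CLP library carries most of the counts of its group. Without each CILP library in turn, the number of such genes was between 4 and 13.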

How the results depend on the processing

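The main analysis called 50 genes, 23 higher and 27 lower. Among all genes tested under each other setting, DESeq2 size factors gave 20 and 31, DESeq2 gave 29 and 60 (89 in all), limma-voom 114 and 86 (200), no filter 46 and 35 (81), a filter by group over 22 libraries 47 and 37 (84), the 5 CILP libraries alone 30 and 39 (69), 47 libraries of both batches 8 and 5 (13), and X, Y and unplaced genes kept 25 and 31 (56). Of the 50, 43 held in DESeq2, 47 in limma-voom and 9 with both batches. Leaving out 1 library gave 6 to 40 calls, 2 to 14 higher and 4 to 26 lower, and Ccr2 and Top2a held each time. With the knockout libraries thinned to the mean wild-type total of 81531 counts, an alternative chosen after the depths were seen, 16 rose and 23 fell of 2661 tested, and 34 of 46 calls with a value held. The number of genes whose effect differed between CILP and CLP was 23 with DESeq2, 52 with limma-voom, 31 with no filter, 34 with the filter by group, 3 with both batches and 4 to 13 with 1 library left out. For Id2 the log2 fold change was between -5.98 and -3.94 with 1 library left out. It passed the test with DESeq2 (-4.75), limma-voom (-4.75), no filter (-4.46), the filter by group (-4.54) and the 5 CILP libraries (-4.63), and missed it with both batches (adjusted p = 0.31). The cause was not tested.

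For 120 named or called genes, 1347 of 1661 values kept direction and side of the threshold, 234 lost the call, 69 gained it and 11, all of genes not called, changed sign. These were Tfrc with both batches (-0.12), Cd3d with limma-voom (0.33), and 8 genes with 1 library left out. Without each library in turn, log2 fold changes lay between -0.4 and 1.12 for Mef2c, -1.34 and 1.23 for Tcf3, -0.72 and 0.05 for Bak1, -2.45 and 0.41 for Ccr9, -0.96 and 0.07 for Xbp1, -0.63 and 0 for Runx3, -0.09 and 1.19 for Runx1, and -0.89 and 0.15 for Cd3d. Of 376 list medians, 14 moved by more than the median standard error of their members. No paired analysis was possible because the labels give no replicate numbers. The wild-type libraries, down to 42266 counts, limit what can be seen of weakly expressed genes, so a 0 there says not detected at this depth.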

Other observations

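The batch also held 1 Id2 knockout and 1 wild-type library labelled ILCP, a population that the series' design text does not describe, and no comparison was made. The knockout one summed to 19870.1 CPM of myeloid markers and 24887.4 CPM of erythroid and megakaryocyte markers, against 125.3 and 19.3 CPM in the wild-type one. Basophil and mast cell markers, which summed to 6372.1 and 3793.6 CPM in knockout CILP, were at 143.7 CPM in the knockout library labelled ILCP and at 0 and 80.1 CPM in knockout CLP, against 0 in all wild-type CLP libraries.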
